A study of Homo sapiens with 6 samples.

Results

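The 10 genes described here encode transcription factors of the AP-1, ATF and EGR families: FOS, FOSB and FOSL2, JUN, JUNB and JUND, ATF3, and EGR1, EGR2 and EGR3. They were taken from a table of 23227 genes by their Ensembl IDs, all 10 were found in it, and all 10 passed the filter on low counts. The IDs are ENSG00000170345 (FOS), ENSG00000125740 (FOSB), ENSG00000075426 (FOSL2), ENSG00000177606 (JUN), ENSG00000171223 (JUNB), ENSG00000130522 (JUND), ENSG00000162772 (ATF3), ENSG00000120738 (EGR1), ENSG00000122877 (EGR2) and ENSG00000179388 (EGR3). RNA sequencing was done on 6 libraries of MV4-11, an established human line of acute myeloid leukaemia that is driven by a KMT2A fusion and mutant FLT3. The knockdown group held 3 libraries of wild-type MV4-11 cells labelled as an ENO1 knockdown, whose column names carry 1 hairpin (sh2), and the control group held 3 libraries of the same line labelled as untreated and named NC. ENO1 encodes alpha-enolase, a glycolytic enzyme. Whether NC cells carried a control hairpin, and whether replicates were grown as separate cultures, is not given in the labels, so p-values measure only library-to-library spread, which may be technical.

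AP-1 is a dimer of basic leucine zipper proteins. JUN proteins pair with themselves, with FOS proteins or with ATF proteins such as ATF3, whereas FOS proteins need a JUN partner, and the dimers bind short palindromes in promoters and enhancers. EGR proteins bind GC-rich sites through zinc fingers and are held in check by the NAB corepressors. Many of these genes are immediate early genes, which serum, growth factors and stress switch on within minutes through MAP kinases, serum response factor and CREB or ATF factors, and whose mRNAs often decay fast. In myeloid cells, JUN and EGR1 are known for their part in monocyte and macrophage differentiation.

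Promoter sequence is shown first, marked for sites of kinds known to regulate members of these families. Some kinds occurred in genes that changed in opposite directions: the CArG box, CGTCA and GCGNGGGCG in EGR1 and EGR2, and TGACNTCA in JUN, ATF3 and JUND. Whether any site bears on the direction of change was not tested. RefSeq promoter windows on GRCh38.p14, from 250 bases before to 50 bases after an annotated start, were found for 9 of the 10 genes, 12 windows in all. The 200 bases before the start are printed 5′ to 3′ on the gene's own strand. Capitals mark the CArG box, which binds serum response factor, the sites TGACNTCA and CGTCA of CREB, ATF and AP-1 factors, the AP-1 site TGANTCA, and GCGNGGGCG of EGR factors. The windows are EGR1 at chr5:138465279-138465478 (plus strand), 1 of the 3 windows of EGR2 at chr10:62816367-62816566 (minus strand), JUN at chr1:58784048-58784247 (minus strand), JUND at chr19:18281623-18281822 (minus strand), 1 of the 2 windows of ATF3 at chr1:212565207-212565406 (plus strand) and FOS at chr14:75278628-75278827 (plus strand).
EGR1: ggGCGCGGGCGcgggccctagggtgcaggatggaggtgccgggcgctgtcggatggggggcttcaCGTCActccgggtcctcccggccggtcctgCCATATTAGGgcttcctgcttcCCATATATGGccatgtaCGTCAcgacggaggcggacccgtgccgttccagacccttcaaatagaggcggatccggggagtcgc
EGR2: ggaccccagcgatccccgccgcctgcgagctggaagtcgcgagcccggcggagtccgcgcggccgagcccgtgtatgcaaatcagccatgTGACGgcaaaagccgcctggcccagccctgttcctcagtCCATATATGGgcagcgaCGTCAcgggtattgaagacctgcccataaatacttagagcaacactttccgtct
JUN: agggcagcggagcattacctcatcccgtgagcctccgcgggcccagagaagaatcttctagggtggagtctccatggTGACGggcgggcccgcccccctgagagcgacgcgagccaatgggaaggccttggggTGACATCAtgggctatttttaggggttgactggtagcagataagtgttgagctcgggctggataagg
JUND: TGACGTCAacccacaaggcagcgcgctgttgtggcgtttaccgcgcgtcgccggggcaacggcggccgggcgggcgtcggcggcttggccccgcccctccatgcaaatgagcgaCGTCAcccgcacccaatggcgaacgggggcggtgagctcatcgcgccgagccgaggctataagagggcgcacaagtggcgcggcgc
ATF3: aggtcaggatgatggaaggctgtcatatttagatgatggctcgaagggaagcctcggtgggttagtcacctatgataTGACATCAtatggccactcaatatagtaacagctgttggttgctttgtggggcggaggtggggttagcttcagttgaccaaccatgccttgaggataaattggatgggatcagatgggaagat
FOS: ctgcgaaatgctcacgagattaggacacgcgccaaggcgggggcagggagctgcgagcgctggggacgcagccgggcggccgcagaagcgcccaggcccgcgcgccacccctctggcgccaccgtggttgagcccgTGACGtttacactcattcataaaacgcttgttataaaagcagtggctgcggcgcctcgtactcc

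The EGR1 window held 2 CArG boxes, which began 105 and 83 bases before the start, and the EGR2 window held 1, which began 71 bases before it. A CArG box on either strand was present in 1.29% of 35116 RefSeq promoter windows. EGR1 and EGR2 also each held CGTCA at 2 places, a sequence found in 24.6% of windows, and EGR1 held an EGR site, GCGCGGGCG, of a kind found in 9.43%. Another EGR2 window, not printed here, held an EGR site of this kind just after the start, on the reverse strand. The 8-base site TGACNTCA, found in 7.72% of windows, was present in the JUN window 67 bases before the start and in the ATF3 window 123 bases before it, in both as TGACATCA. JUND held it 200 bases before the start as TGACGTCA, a form found in 1.85% of windows, and this form holds CGTCA on both strands. FOS held CGTCA once, on the reverse strand 64 bases before the start. The windows of FOSB, JUNB and FOSL2, not printed here, held CGTCA too. Among them, FOSL2 also held the AP-1 site TGANTCA just after the start, a site found in 7.71% of windows. A match describes letters in a window and is not a bound site. Sites further than 250 bases before a start were not searched, so a gene without a match here may still have one.

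Counts were tested with edgeR's quasi-likelihood test across all 14635 genes that passed the filter, with Benjamini-Hochberg adjustment over all of them and a threshold of 0.05. Levels are CPM, counts scaled to library sizes with TMM factors, and fold changes are knockdown over control on the log2 scale with an approximate standard error (SE). The knockdown libraries held 20044602 to 21670135 counts and the control libraries 24778469 to 26373960. ENO1 had 2225, 2225 and 2070 counts in the knockdown libraries, against 84016, 79566 and 80058 in the controls, so it was low in every library labelled as a knockdown. Knockdown replicate 3 stood apart from the other 2 knockdown libraries, with chi-square values, divided by their degrees of freedom, of 3.98 and 4.15 against 2.28 between those 2, and control replicate 2 stood apart less, with 2.82 and 3.12 against 2.09. Mitochondrially encoded genes took 9.27 to 9.69% of the counts in the knockdown libraries and 6.69 to 6.88% in the controls. All 8 myeloid markers were present, summed to 1740 to 1790 CPM in the knockdown libraries and 1560 to 1580 CPM in the controls, and moved both ways, 4 higher and 3 lower. CSF3R fell to 24.6 ± 1.17 CPM in knockdown cells, against 112 ± 4.18 CPM in controls, and MPO to 3.66 ± 0.279 CPM in knockdown cells, against 22.4 ± 1.19 CPM in controls, while PTPRC rose to 189 ± 11.7 CPM in knockdown cells, against 88.0 ± 3.802 CPM in controls (SD, n = 3 each; edgeR adjusted p = 4.86e-23, 5.17e-18 and 2.2e-17). The epithelial markers summed to 44.9 to 47.8 CPM in the knockdown libraries and to at least 18.1 CPM in each control, carried by KRT8 (23.4 ± 0.168 CPM in knockdown cells and 8.39 ± 0.264 CPM in controls) and KRT18 (23.1 ± 1.32 CPM in knockdown cells and 10.5 ± 0.767 CPM in controls; SD, n = 3 each), with EPCAM at no more than 2 counts. B cell markers summed to 6.17 to 7.02 CPM in the knockdown libraries and 3.45 to 4.67 CPM in the controls. Megakaryocyte markers summed to 4.54 to 6.15 CPM in the knockdown libraries and 3.16 to 4.59 CPM in the controls. The T and NK cell markers, nearly all NKG7, summed to 23.9 to 26.3 CPM in the knockdown libraries and 25.6 to 28.5 CPM in the controls, with CD3E, CD2 and CD8A at no more than 3 counts in any library. Stromal and erythroid markers summed to no more than 1.36 CPM in any library. The part of these differences in the results was not tested.

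Of the 10 factors, 4 were higher in the knockdown cells (JUN, ATF3, EGR2 and EGR3), 3 were lower (FOSL2, JUND and EGR1) and 3 were not called (FOS, FOSB and JUNB). Each of the JUN and EGR families held members that changed in opposite directions. Across all genes tested, 59.9% were called, 29.4% higher and 30.5% lower, so the share of called factors is near that of genes at large. The median log2 fold change of the 10 factors was -0.04, against 0.00 for all genes tested. The groups did not overlap for 8 of the 10 factors, against 64.3% of all genes tested. In bulk RNA, fewer cells expressing a gene and less of its RNA per cell cannot be told apart.

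**Figure D1:**
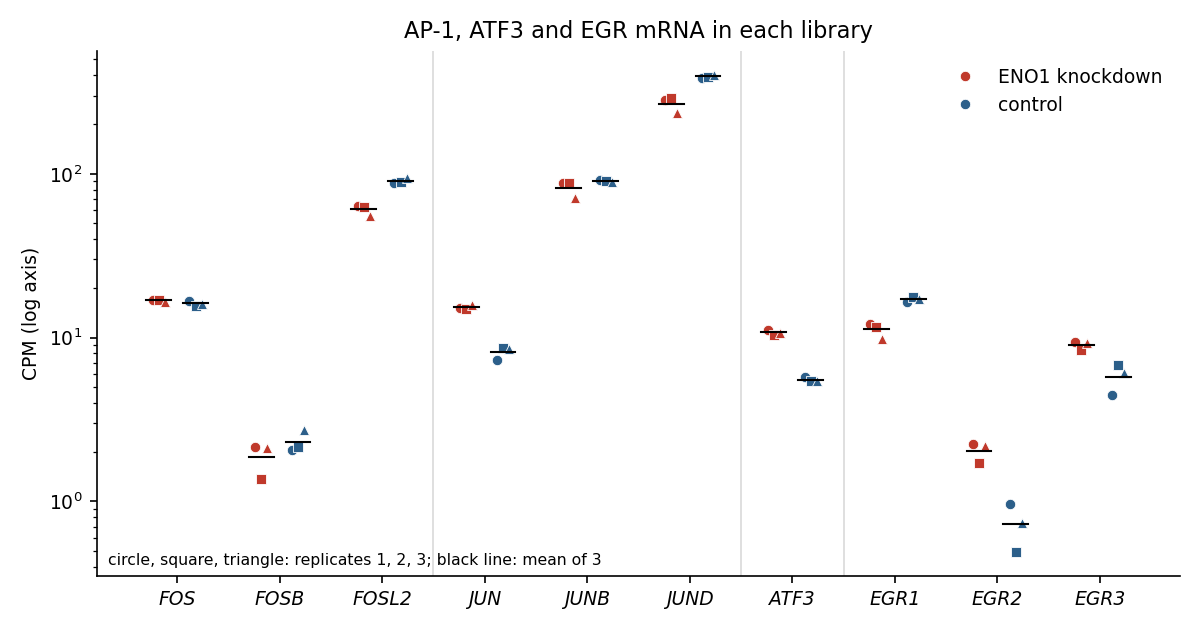
Level of each factor in every library, as CPM on a log axis, with the 3 ENO1 knockdown libraries (red) left of the 3 controls (blue) for each gene and a black line at the mean. JUN, ATF3, EGR2 and EGR3 lie higher in all knockdown libraries, FOSL2, JUND and EGR1 lie lower, and FOS and FOSB overlap between the groups. JUNB also lies lower in all knockdown libraries, by little in replicates 1 and 2, and was not called.

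JUN, the member of the family that drives cell cycle entry and macrophage genes, rose. It had 325, 329 and 323 counts in the knockdown libraries, against 189, 211 and 207 in the control libraries. All knockdown libraries were above all controls although they were sequenced less deeply. The mean was 15.3 ± 0.508 CPM in knockdown cells and 8.14 ± 0.746 CPM in controls (SD, n = 3 each), a log2 fold change of 0.91 with an SE of 0.10 (edgeR adjusted p = 5.36e-09), which is 1.88-fold. The gene lies on GRCh38 chromosome 1 from 58780788 to 58784327, on the minus strand, in a single exon, and no exon of another gene overlaps it.

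JUND, a JUN protein that is known for high expression in resting cells and for slowing growth, fell. Its counts were 6038, 6351 and 4769 in the knockdown libraries, against 9982, 9552 and 9821 in the control libraries. Knockdown replicate 3 was the lowest, and the groups did not overlap. JUND averaged 268 ± 29.1 CPM in knockdown cells and 393 ± 9.13 CPM in controls (SD, n = 3 each), a log2 fold change of -0.55 with an SE of 0.08 (edgeR adjusted p = 0.00232). That left 68.2% of the control level. The gene lies on chromosome 19 from 18279760 to 18281622, on the minus strand.

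JUNB, which can oppose JUN at its targets, was not called. It had 1894, 1933 and 1452 counts in the knockdown libraries, against 2381, 2205 and 2163 in the control libraries. In CPM these were 88.0, 87.7 and 71.4 in knockdown cells, against 91.8, 90.4 and 88.8 in controls, so knockdown replicate 3 alone was clearly below the rest. The log2 fold change was -0.13 with a 95% interval of -0.27 to 0.01 (edgeR adjusted p = 0.102), and it was -0.04 without knockdown replicate 3 (adjusted p = 0.354). JUNB passed the test when knockdown replicate 1 or knockdown replicate 2 was left out instead, at -0.18 in both fits (edgeR adjusted p = 0.0303 and 0.0312), and with the replicate number as a block (-0.14, adjusted p = 0.0301). Exons of HOOK2 on the opposite strand cover 14.2% of the JUNB exon, the strand setting of the counting is not given, and HOOK2 itself rose to 42.3 ± 0.436 CPM in knockdown cells, against 35.4 ± 2.96 CPM in controls (SD, n = 3 each; edgeR adjusted p = 0.000475), so the JUNB count is uncertain. JUNB lies on chromosome 19 from 12791496 to 12793315, on the plus strand.

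Of the 3 FOS genes among the factors, FOSL2 was called. FOSL2, also called FRA2, a FOS protein without the activation domain of FOS, had 1377, 1387 and 1128 counts in the knockdown libraries, against 2289, 2162 and 2281 in the controls. Each knockdown library was below each control, also after scaling, at 64.0, 62.9 and 55.5 CPM in knockdown cells, against 88.3, 88.6 and 93.6 CPM in controls. FOSL2 fell by 0.57 on the log2 scale with an SE of 0.05 (edgeR adjusted p = 1.3e-10), to 67.5% of the control level. It lies on chromosome 2 from 28392448 to 28417312, on the plus strand.

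FOS, the founding member and a classical immediate early gene, had 366, 373 and 337 counts in the knockdown libraries, against 436, 382 and 393 in the control libraries. Scaled to depth these were 17.0, 16.9 and 16.6 CPM in knockdown cells, against 16.8, 15.7 and 16.1 CPM in controls, and the groups overlapped. The log2 fold change was 0.06 with a 95% interval of -0.11 to 0.22 (edgeR adjusted p = 0.566). FOSB, at percentile 21.2 of the levels of all tested genes, had 46, 30 and 43 counts in the knockdown libraries, against 53, 52 and 66 in the controls. Its log2 fold change of -0.30 had a 95% interval of -0.77 to 0.18 (edgeR adjusted p = 0.28), and it was not called. FOS lies on chromosome 14 from 75278774 to 75282230 and FOSB on chromosome 19 from 45467995 to 45475179, both on the plus strand.

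ATF3, a stress-induced factor that forms dimers with JUN proteins and often represses, rose. It had 240, 229 and 218 counts in the knockdown libraries, against 150, 132 and 132 in the controls. Its mean was 10.8 ± 0.383 CPM in knockdown cells and 5.54 ± 0.214 CPM in controls (SD, n = 3 each), and the groups were far apart relative to that spread. The log2 fold change was 0.96 with an SE of 0.11 (edgeR adjusted p = 2.15e-08), which is 1.94-fold. The gene lies on chromosome 1 from 212565334 to 212620777, on the plus strand.

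EGR1, an immediate early zinc finger factor of monocyte differentiation, fell. It had 262, 257 and 200 counts in the knockdown libraries, against 430, 434 and 417 in the control libraries. The groups did not overlap, and knockdown replicate 3 was again the lowest. EGR1 averaged 11.2 ± 1.23 CPM in knockdown cells and 17.2 ± 0.608 CPM in controls (SD, n = 3 each), a log2 fold change of -0.61 with an SE of 0.09 (edgeR adjusted p = 1.89e-06). It lies on chromosome 5 from 138465490 to 138469315, on the plus strand.

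EGR2 and EGR3, which bind the same kind of site and are known as targets of NFAT in T cells, rose. EGR2 had 48, 38 and 44 counts in the knockdown libraries, against 25, 12 and 18 in the control libraries. Each knockdown library was above each control, but at few counts. EGR2 averaged 2.04 ± 0.275 CPM in knockdown cells and 0.732 ± 0.236 CPM in controls (SD, n = 3 each), a log2 fold change of 1.46 with a wide 95% interval of 0.86 to 2.07 (edgeR adjusted p = 0.000111). It lies on chromosome 10 from 62811996 to 62919900, on the minus strand. EGR3 had 201, 185 and 189 counts in the knockdown libraries, against 116, 165 and 149 in the controls. Its log2 fold change was 0.64 with an SE of 0.13 (edgeR adjusted p = 0.000141), and control replicate 1 was the lowest library. A gene on the opposite strand covers 3.38% of the EGR3 exons.

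**Figure D2:**
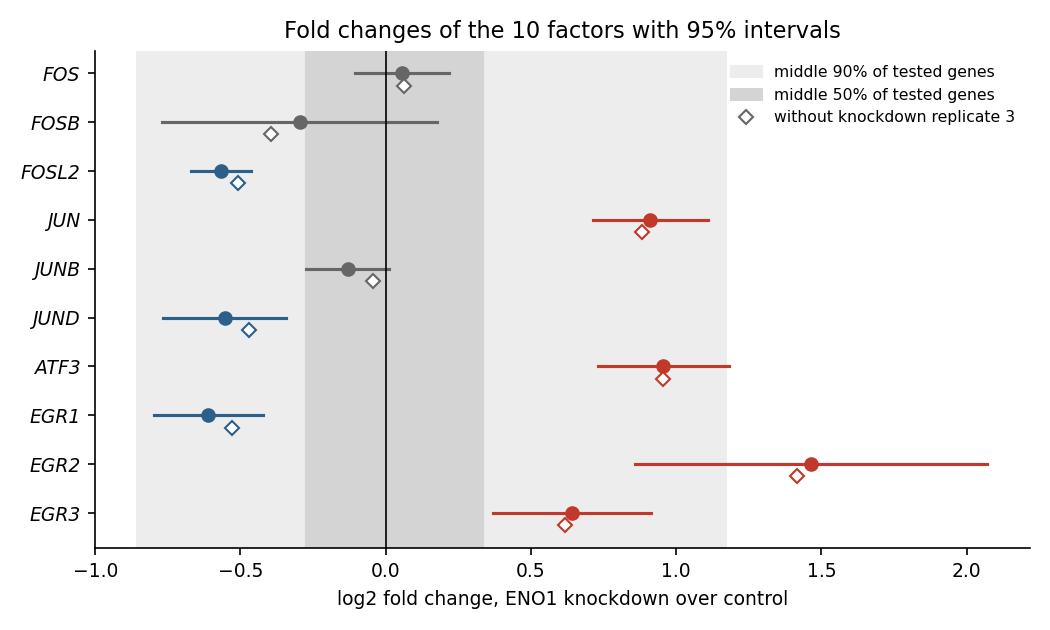
Log2 fold change of each factor, ENO1 knockdown over control, with its 95% interval (lines). Red marks higher, blue lower and grey no call, and the shaded bands hold the middle 50% (-0.28 to 0.33) and 90% (-0.86 to 1.17) of all genes tested. Open diamonds are fits without knockdown replicate 3, where JUNB moves to -0.04 and the called factors stay on their side of 0.

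The 7 calls held in each of the 19 alternatives, or 18 for EGR2, which a filter at 5 CPM removed. Knockdown replicate 3 differed from the mean of the other 2 knockdown libraries by -0.30 for JUNB, -0.28 for JUND, -0.28 for EGR1 and -0.19 for FOSL2 on the log2 scale. Over all tested genes, that library was also lower for GC-rich transcripts, with a median difference of -0.11 in the richest of 5 equal GC classes (58.9 to 76.8%) and 0.08 in the poorest (27.5 to 41.6%). The transcripts of JUND and JUNB have 69.7 and 64.9% GC and lie in the richest class, whereas those of EGR1 and FOSL2 have 55.4 and 53.3% and lie in the next, where the median was -0.03. With offsets for GC content and transcript length, chosen after seeing the data, JUND was at -0.40 (edgeR adjusted p = 2.66e-21), EGR1 at -0.65 (5.57e-09) and FOSL2 at -0.65 (2.3e-19). Without knockdown replicate 3, they were at -0.47, -0.53 and -0.51.

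Per kilobase of annotated exon, levels of the 10 factors can be set side by side. JUND was by far the most abundant, at 144 ± 15.6 CPM per kilobase in knockdown cells and 211 ± 4.90 in controls (SD, n = 3 each), followed in both groups by JUNB, at 45.3 ± 5.22 in knockdown cells and 49.6 ± 0.842 in controls, and FOSL2, at 8.50 ± 0.649 in knockdown cells and 12.6 ± 0.416 in controls. The order below them differed between the groups. In knockdown cells it was FOS (5.20 CPM per kilobase), JUN (4.32), EGR1 (3.58), ATF3 (2.66), EGR3 (1.86), EGR2 (0.553) and FOSB (0.337). In controls it was EGR1 (5.47 CPM per kilobase), FOS (5.00), JUN (2.30), ATF3 (1.37), EGR3 (1.19), FOSB (0.413) and EGR2 (0.198). Neighbours did not overlap between libraries except ATF3 and EGR3 in the controls. The place of ATF3 depends on the length used, since per kilobase of its principal transcript it stood at 5.29 in knockdown cells and 2.72 in controls, above JUN in both. Likewise FOS stood at 7.80 in knockdown cells and 7.51 in controls by that length, above EGR1 in controls too.

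Among the 6 FOS and JUN genes summed per length, JUND made up 69.1, 69.9 and 68.8% in the knockdown libraries, against 74.6, 75.1 and 75.6% in the controls. JUNB made up 22.2, 21.8 and 21.5% in the knockdown libraries, against 18.2, 17.7 and 17.1% in the controls, a larger share of a smaller total. The share of JUN was 1.96, 1.91 and 2.45% in the knockdown libraries, against 0.743, 0.873 and 0.839% in the controls. FOSL2 held 4.11 ± 0.133% in knockdown cells and 4.48 ± 0.079% in controls, and FOS 2.52 ± 0.240% in knockdown cells and 1.78 ± 0.081% in controls (SD, n = 3 each). The groups did not overlap for these 5 genes, while those of FOSB did, at 0.165% in knockdown cells and 0.147% in controls. Shares are parts of the same total, so a fall of JUND, its largest part, raises the other shares without a change of their own. FOS and JUNB held larger shares in the knockdown libraries, although neither was called by its own level. FOSL1, the remaining FOS gene, was not among the 6, so the shares leave it out. It averaged 18.5 CPM in knockdown cells and 24.8 CPM in controls, over 1887 exon bases. FOSL2 averaged 60.8 CPM in knockdown cells and 90.2 CPM in controls, over 7157 exon bases. The mean of FOSL1 per kilobase was therefore above that of FOSL2 in both groups.

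**Figure D3:**
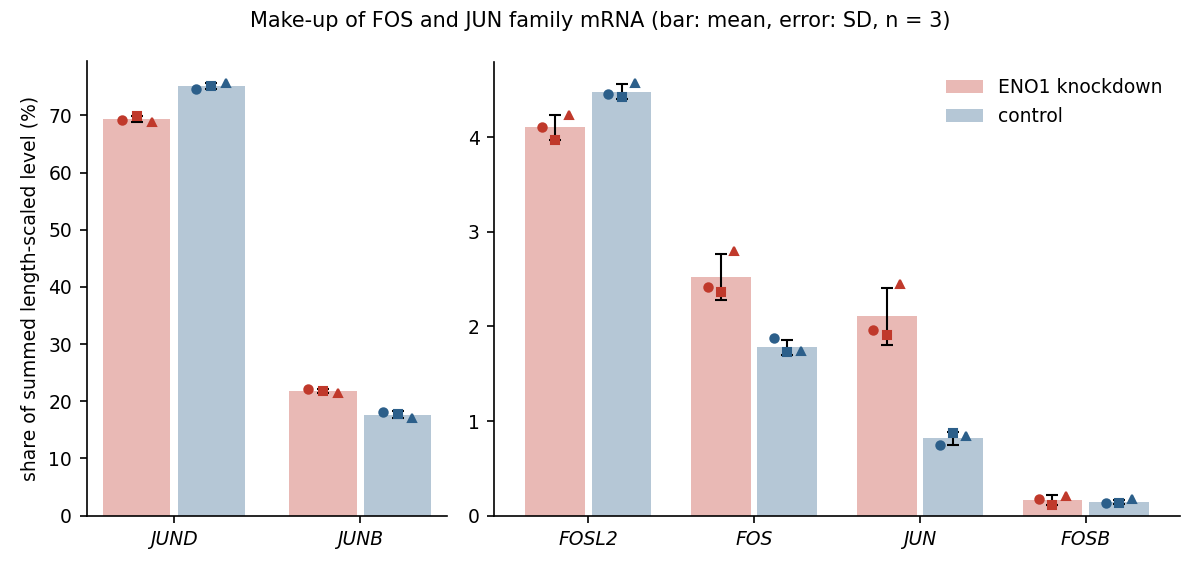
Share of each FOS and JUN gene, FOSL1 left out, in their summed length-scaled level, in percent. The ENO1 knockdown (red) is left of the control (blue), bars are means, error bars SD and points the 3 libraries of each group. JUND holds 69.3% in knockdown cells and 75.1% in controls, and JUN 2.11% in knockdown cells and 0.818% in controls.

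Ratios within a library need no scaling step, but they restate the same counts and are not separate support for the divergence. The JUN to JUND ratio, per length, was 0.0283, 0.0273 and 0.0356 in the knockdown libraries, against 0.00996, 0.0116 and 0.0111 in the controls, so its mean was 2.79 times as high. The EGR2 to EGR1 ratio was 0.156, 0.126 and 0.187 in the knockdown libraries, against 0.0495, 0.0235 and 0.0367 in the controls, 4.27 times as high. The EGR3 to EGR1 ratio averaged 0.524 ± 0.0767 in knockdown cells and 0.217 ± 0.0377 in controls, and the FOS to JUN ratio 1.20 ± 0.0548 in knockdown cells and 2.19 ± 0.290 in controls (SD, n = 3 each). The groups did not overlap in any of the 7 ratios computed. For JUN to JUND, JUN to JUNB, ATF3 to JUND, EGR2 to EGR1 and EGR3 to EGR1 this was fixed in advance. In each, the first factor was higher in all knockdown libraries than in all controls, and the second was lower. JUNB lay lower without being called. A two-sided exact permutation test gave p = 0.1 for each ratio, unchanged by Benjamini-Hochberg adjustment. This is the smallest p that 3 libraries against 3 allow, so no ratio could pass a threshold of 0.05.

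The 3′ untranslated regions were read for AU-rich pentamers (ATTTA), which bind the decay factors ZFP36 and ZFP36L1 and the stabilizing protein ELAVL1. FOS had 5 in 806 bases, 6.20 per kilobase, at percentile 94.8 of 11905 tested protein-coding genes, and JUNB had 4.00 per kilobase at percentile 84.9. The other 8 factors had 0.81 (EGR1) to 2.45 (ATF3) per kilobase, between percentiles 38.7 and 66.1. The densest 30 bases of FOS and FOSL2 are shown from GENCODE release 29, with the pentamers in capitals, because these mRNAs are textbook substrates of AU-directed decay or hold the most pentamers here.
FOS: aaacgttttattgtgtttttaATTTATTTA
FOSL2: agaagaaattgacATTTAttttattATTTA
Of the factors that rose, JUN, ATF3 and EGR3 had 3 pentamers each and EGR2 had 2. Of those that fell, JUND and EGR1 had 1 each and FOSL2 had 9 in 4864 bases. Per kilobase, the factors that rose had 1.07 to 2.45 and those that fell 0.81 to 1.85, so the ranges overlapped. Over all tested protein-coding genes, 67.8% had at least 1 pentamer, and 32.2% of those rose, against 27.4% of the genes without. The shares that fell were 34.5% with a pentamer and 36% without. Of the 7 listed proteins that bind such elements, 2 rose and 4 fell (median log2 fold change -0.36). ZFP36, which triggers decay, rose by 0.88 (edgeR adjusted p = 5.38e-13) and its relative ZFP36L1 by 1.53 (3.08e-12), while KHSRP, another decay factor, fell by 0.41 (1.89e-12). The stabilizing ELAVL1 fell by 0.44 (edgeR adjusted p = 3.1e-12).

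The other AP-1 and small basic leucine zipper genes also moved both ways, with 3 of 8 tested higher, 5 lower and a median of -0.23. Rises and falls of listed genes are given on the log2 scale, with the edgeR adjusted p in parentheses. The counts of this list and those below stand beside 29.4% higher and 30.5% lower over all tested genes. BATF2, a factor of interferon-treated myeloid cells, rose to 8.24 ± 0.407 CPM in knockdown cells, against 2.06 ± 0.0565 CPM in controls, and BATF3, the dendritic cell factor, fell to 2.57 ± 0.547 CPM in knockdown cells, against 8.21 ± 1.19 CPM in controls (SD, n = 3 each; edgeR adjusted p = 3.94e-12 and 8.82e-10). JDP2, a repressor that binds JUN, fell by 0.77 (7.58e-09). Of the small MAF genes, MAFG and MAFF rose by 0.28 and 0.52, against the direction of most of the list, and MAFK, with 18.2% of its exons overlapped by another gene, fell by 0.24 (0.000368). FOSL1 fell, to 18.5 ± 1.58 CPM in knockdown cells, against 24.8 ± 0.842 CPM in controls (SD, n = 3 each; edgeR adjusted p = 1.97e-05). Among 11 ATF and CREB genes 7 were lower and 3 higher, with a median of -0.19. ATF5, ATF4 and ATF6B fell by 0.61, 0.47 and 0.65, whereas ATF7, CREB3 and CREM rose by 0.70, 0.41 and 0.43. Over 10% of the exon or transcript sequence of ATF4, ATF5, ATF6B, ATF7 and CREB3 is shared with other genes or overlapped by them, so their counts are uncertain.

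Of the kinases upstream, 9 of 17 were lower and 5 higher, with a median of -0.13. MAPK3, which encodes the kinase ERK1, fell to 22.9 ± 1.24 CPM in knockdown cells, against 41.1 ± 0.509 CPM in controls (SD, n = 3 each; edgeR adjusted p = 2.01e-12). RPS6KA3, which encodes the ERK-activated kinase RSK2, fell by 0.81 (1.75e-16). MAPK11, which encodes p38 beta, rose by 1.02 (3.16e-12), and MAP2K5, MAP2K3, MAP2K1 and MAPK7 rose by 0.61, 0.22, 0.27 and 0.26, against the direction of most of the list, with 11.5% of the MAP2K1 exons overlapped by other genes. Of the serum response factor group 3 of 6 genes were higher and none lower (median 0.29). These were SRF itself, at 148 ± 15.2 CPM in knockdown cells and 111 ± 0.610 CPM in controls (SD, n = 3 each; edgeR adjusted p = 7.09e-05), its coactivator MRTFA, which rose by 0.48, and the ternary complex factor ELK1, which rose by 0.34. Of the EGR relatives, WT1 rose by 0.43 (1.9e-08), and the corepressors NAB1 and NAB2 fell by 0.44 and 0.18 (1.1e-05 and 0.00704). In place of 2 lower genes, the list had 1 when control replicate 1 was left out.

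Among 21 other immediate early genes 20 were tested, 11 were higher and 5 lower, with a median of 0.36. BTG2, an antiproliferative gene that p53 also induces, rose to 125 ± 2.48 CPM in knockdown cells, against 30.2 ± 0.897 CPM in controls (SD, n = 3 each; edgeR adjusted p = 1.61e-23). PPP1R15A, which restores translation after stress, rose by 0.62 (4.59e-11) and the pseudokinase gene TRIB1 by 0.71 (7.43e-11). The 5 lower genes, MCL1, IER2, NR4A1, KLF10 and KLF4, had log2 fold changes of -0.14, -0.21, -0.48, -0.18 and -0.30. The paralogs of NR4A1 rose: NR4A2 by 1.30 (1.42e-06), and NR4A3, which had 27, 23 and 33 counts in the knockdown libraries, against 0, 2 and 3 in the controls (edgeR adjusted p = 2.52e-07). The number of lower genes was 2 without control replicate 2 and 3 without knockdown replicate 3 or control replicate 3. Over 10% of the exons of IER2 and NR4A1 overlap another gene.

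**Figure D4:**
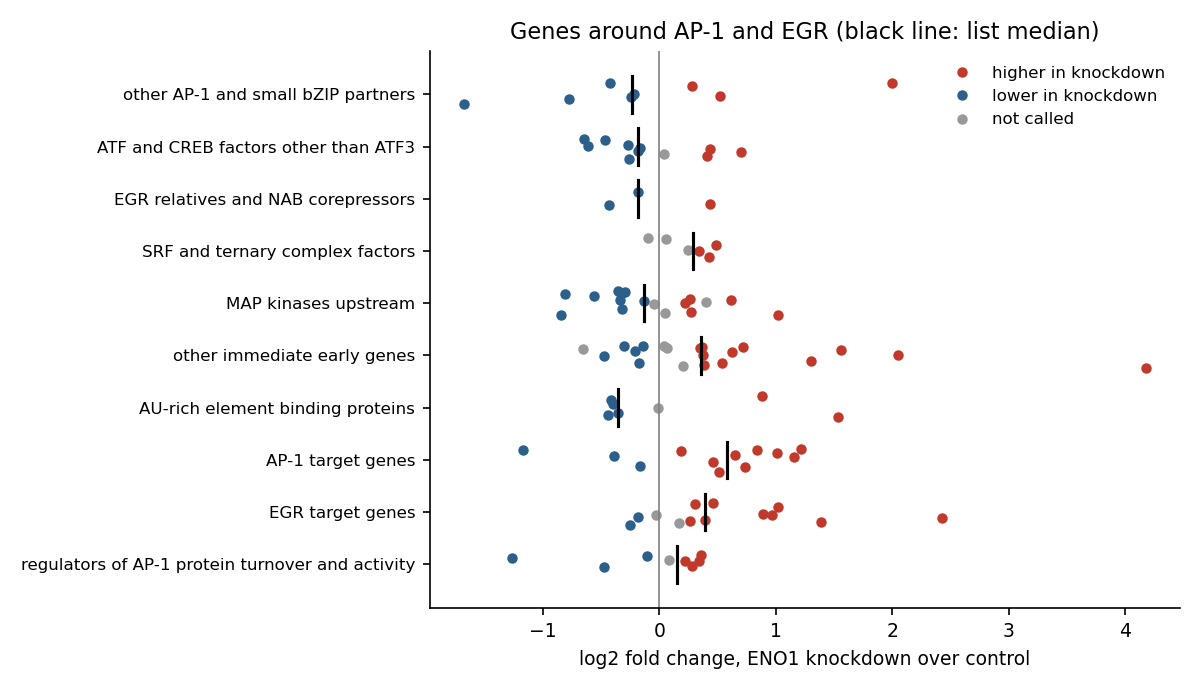
Log2 fold change, ENO1 knockdown over control, of each tested gene in 10 lists around AP-1 and EGR, with red for higher, blue for lower and grey for not called, and a black line at the list median. Medians run from -0.36 for AU-rich element binding proteins to 0.58 for AP-1 target genes.

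Of 15 genes listed as AP-1 targets 12 were tested, 9 were higher and 3 lower, with a median of 0.58. Over all tested genes, 29.4% were higher and 30.5% lower. LMNA, the lamin A gene, reached 630 ± 29.9 CPM in knockdown cells, against 271 ± 1.80 CPM in controls, and TIMP1, an inhibitor of metalloproteinases, 160 ± 5.38 CPM in knockdown cells, against 79.5 ± 2.36 CPM in controls (SD, n = 3 each; edgeR adjusted p = 7.32e-22 and 2.98e-18). Vimentin (VIM) rose by 0.74 (7.64e-18). The urokinase gene PLAU, its receptor PLAUR and the gelatinase MMP9 fell by 0.39, 0.17 and 1.17, against the direction of most of the list. The counts of VIM, PLAU and MMP9 are uncertain, since over 10% of their exons overlap other genes. So are those of FTH1 (62.4% overlapped) and CCND1 (10.3%), which were both among the higher genes. Among 15 listed EGR targets 13 were tested, 9 were higher and 2 lower, with a median of 0.39. TXNIP, an arrestin that limits glucose uptake, rose by 1.39 (3.03e-22), ICAM1, an adhesion molecule with 23.6% of its exons overlapped by other genes, by 0.97 (6.26e-16), and TNF by 0.89 (4.65e-15), while TGFB1 and NAB2 fell by 0.26 and 0.18. When control replicate 1 was left out, 1 gene of the list was lower. CD44 is in both lists and NAB2 in 2 of the 10 lists, and other factors drive many of these genes too. The lists were chosen with earlier results known, so their counts were not read as AP-1 or EGR activity.

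Of 8 regulators of AP-1 protein turnover and activity 4 were higher and 3 lower, with a median of 0.15. DDB1, the adaptor that joins the ligase COP1 and DET1 to cullin 4 for degradation of JUN, fell to 138 ± 3.61 CPM in knockdown cells, against 333 ± 8.79 CPM in controls (SD, n = 3 each; edgeR adjusted p = 6.19e-22). COPS5, first described as the JUN coactivator JAB1, fell by 0.47 (1.13e-10). GSK3B, a kinase that marks JUN for destruction, rose by 0.36 (8.42e-08), and COP1 rose by 0.22 (0.000416). Protein levels and phosphorylation, on which AP-1 activity largely depends, were not measured.

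Genes most like a factor across the 6 libraries were sought among 9015 other tested genes with a mean of at least 10 CPM. Likeness was the mean absolute difference of log2(CPM + 0.5), centred on each gene's own mean. The closest to FOS were FLI1, PLPP5 and SNX13, with differences of 0.0059, 0.0123 and 0.0124. JUN was closest to CRYBG3, ZNF548 and STAT3 (0.0337, 0.0403 and 0.0407). ATF3 was closest to NAPSB, MACROH2A1 and H2BC12 (0.0272, 0.0288 and 0.0302), and EGR1 to SEC24D, E2F4 and ADISSP (0.0317, 0.0329 and 0.0331). With 2 groups, the measure is small for any gene with a fold change of about the same size.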

How the data were processed

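RNA sequencing libraries were made from total RNA extracted with Trizol (Illumina TruSeq RNA kit), according to the protocols in the labels. HISAT2 2.0.5 and the build hg38 were used, per the submitters' processing notes; which counter, annotation and strand setting were used is not stated in these sources. The authors deposited raw counts for each Ensembl gene, 1 column per library, per the file headers. Columns were matched to samples by group and replicate number. Symbols were found for 23211 of 23227 IDs.

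The test was that of edgeR 4.0.16, run in R 4.3.3 (TMM, filterByExpr at its default minimum count of 10, robust quasi-likelihood fit, two-sided). The filter kept 14635 genes with 99.91% of the counts. SEs were derived from the fold change and its F statistic, and intervals (95%) use the fit's degrees of freedom. Positions, exon lengths and overlaps (shared 50-base stretches included) came from GENCODE release 29 on GRCh38; GC content was found for 96.0% of tested genes. The alternatives were other scalings and filters, DESeq2 1.42.0, limma-voom (limma 3.58.1), a replicate block, leave-one-out fits, a threshold of 0.01 and, chosen after seeing the data, GC and length offsets (mgcv 1.9.3) and leaving out the 2 libraries that stood apart. The procedure was tested on simulated data in which few genes changed and all genes shared the same dispersion. That test does not cover data where 59.9% of genes are called or where a library stands apart.

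The 10 factors and the lists were chosen with earlier results of these data known, and no list was tested as a set. Named from each list were the 3 genes with the smallest adjusted p and those that passed the test against most of the list. FOSL1, MAFK, ELAVL1, NR4A2, NR4A3, COP1, HOOK2, FTH1, CCND1 and the markers were named after their values were seen. Some items are not reported here. For FOS, JUN, ATF3 and EGR1, the 3 most similar genes were named. Sequences are from RefSeq (GRCh38.p14) and GENCODE.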

Additional observations from a re-analysis of the deposited data

How the results depend on the processing

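All 19 alternatives gave JUN, JUND, FOSL2, ATF3, EGR1 and EGR3 the direction and call reported, and the 18 that kept EGR2 did so for it. Their log2 fold changes ranged from 0.83 to 0.96 for JUN, -0.61 to -0.40 for JUND, -0.65 to -0.51 for FOSL2, 0.88 to 1.01 for ATF3, -0.67 to -0.50 for EGR1, 1.21 to 1.71 for EGR2 and 0.48 to 0.77 for EGR3, with edgeR, DESeq2 or limma adjusted p no higher than 0.00895. JUNB was called without a filter (-0.16, edgeR adjusted p = 0.00131) and with the replicate block (-0.14), and ranged from -0.183 to -0.044 with 1 library left out; the cause was not tested. FOS turned to -0.01 with GC and length offsets, also with the block (-0.009), uncalled in both. Same-numbered libraries did not deviate together (r = 0.00, 0.00 and -0.05), so the numbers were not taken as pairs; the block gave 8490 called genes in place of 8767. Of the other immediate early genes, 3 were lower with library size alone, upper-quartile factors, the 5 CPM filter, DESeq2 or a threshold of 0.01, 2 without the libraries that stood apart, and 2 to 5 with 1 library left out. With library size alone, 1 EGR relative and 1 EGR target were lower, and 1 to 2 of each with 1 library left out. The offsets gave 1 lower gene of the serum response factor group, with or without the block, and with the block 1 lower EGR relative. Lengths of principal transcripts moved the shares to 3.73% in knockdown cells and 2.64% in controls for FOS, 0.239% in knockdown cells and 0.213% in controls for FOSB, 4.31% in knockdown cells and 4.72% in controls for FOSL2, and 68.2% in knockdown cells and 74.2% in controls for JUND. Over all settings the median of tested genes shifted by no more than 0.06 on the log2 scale. Precision for EGR2 and FOSB is limited by 12 to 66 counts per library.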
